A study of Caenorhabditis elegans with 2 samples.

Results

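The genes described here encode the basic helix-loop-helix (bHLH) transcription factors of Caenorhabditis elegans. They were taken from the Ensembl annotation of WBcel235 as all 25 genes named hlh- plus a number and 16 others of the family with their own names (lin-32, cnd-1, ngn-1, lin-22, ref-1, mxl-1, mxl-2, mxl-3, mdl-1, mml-1, sbp-1, aha-1, ahr-1, cky-1, hif-1 and hnd-1), 41 of 19973 protein-coding genes in all. The rule uses gene names and no measured value, although it was drawn up with earlier results of these data known, and the 41 genes lie on all 6 chromosomes. Sites of one of these factors, HLH-17, were mapped by chromatin immunoprecipitation and sequencing (ChIP-seq), which recovers DNA bound by a tagged protein.

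The strain, OP643, carried wgIs643, a transgene of hlh-17 fused to TY1, EGFP and 3xFLAG together with a functional copy of unc-119, in an unc-119 (tm4063) mutant background. Its chromatin came from whole L1 larvae of pooled sexes, 6 h old and starved after bleaching, and was sonicated to 200 to 800 bp before precipitation with an antibody against GFP. The 2 biological replicates form the only group, so no condition was compared with another, and no test was run. Whole animals from 1 transgenic line were used, so a peak does not say in which cells the protein was bound, and the labels do not say how strongly the transgene was expressed beside the native hlh-17.

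Proteins of the bHLH family bind DNA as dimers through a basic region next to the helix-loop-helix, typically at the E-box CANNTG, and different partners prefer different inner bases. They direct fate choices in many lineages, among them neurons, glia and muscle, while members that also carry a leucine zipper or a PAS domain respond to nutrients, oxygen and foreign compounds. HLH-17 belongs to the Olig group, is known from glia of the worm's head, and has the close relatives HLH-31 and HLH-32.

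Relaxed peak lists of equal length were read side by side: 30000 peaks from replicate 1, 30000 from replicate 2 and 30000 from both replicates pooled. A relaxed list holds weak peaks and background by design. Within each list a peak's rank, with 1 the best, was set by the authors' signal value, whose scale is not stated and differs between lists. A list of 115 peaks that passed the authors' reproducibility threshold was also read. A gene's window was its body plus 5000 bp upstream of its start, and a peak belonged to the gene if its summit lay there. A pooled peak counted as found in a replicate if that replicate's list had a summit within 100 bp. Read numbers were not used, so the depth behind a peak is unknown.

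The sequences at 8 summits are shown because they stand for the patterns described below: peaks in coding exons of hif-1, mml-1, mxl-3 and lin-22, a peak at the start of cky-1, both leading peaks before hlh-17, and the mdl-1 peak of replicate 1. Each is the summit base with 50 bp on either side, from the plus strand of WBcel235 (ce11), 5′ to 3′. Capitals mark every CANNTG, a motif that is its own reverse complement, so one scan covers both strands.
hif-1, pooled rank 150, chrV:20784504-20784604: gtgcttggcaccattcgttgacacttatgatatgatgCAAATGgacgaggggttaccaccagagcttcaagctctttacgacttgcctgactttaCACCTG
mml-1, pooled rank 443, chrIII:7372784-7372884: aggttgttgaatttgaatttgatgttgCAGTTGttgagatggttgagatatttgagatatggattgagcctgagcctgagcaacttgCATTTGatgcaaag
mxl-3, pooled rank 2684, chrX:13349978-13350078: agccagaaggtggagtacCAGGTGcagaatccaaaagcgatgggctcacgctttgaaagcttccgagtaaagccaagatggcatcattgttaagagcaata
lin-22, pooled rank 7150, chrIV:3022054-3022154: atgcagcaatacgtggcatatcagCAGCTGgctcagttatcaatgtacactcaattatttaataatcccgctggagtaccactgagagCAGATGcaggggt
cky-1, pooled rank 2352, chrV:12736484-12736584: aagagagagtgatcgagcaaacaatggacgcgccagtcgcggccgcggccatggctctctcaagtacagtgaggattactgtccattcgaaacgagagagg
hlh-17, pooled rank 1089, chrIV:16252940-16253040: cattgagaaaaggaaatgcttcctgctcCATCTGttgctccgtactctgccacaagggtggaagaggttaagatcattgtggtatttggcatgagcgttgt
hlh-17, pooled rank 1924, chrIV:16254662-16254762: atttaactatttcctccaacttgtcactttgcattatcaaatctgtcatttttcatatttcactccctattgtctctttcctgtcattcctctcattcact
mdl-1, replicate 1 rank 49, chrX:6742975-6743075: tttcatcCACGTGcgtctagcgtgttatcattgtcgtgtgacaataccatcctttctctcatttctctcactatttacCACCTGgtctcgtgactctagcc

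Nearly every bHLH gene had a peak in its window, and so did most other genes. A pooled summit lay in the windows of 39 of 41 genes (95.1%), against 87.8% of all protein-coding genes; replicate 1 gave 40 against 88.5% and replicate 2 gave 39 against 87.9%. The summits were about as dense as elsewhere, at 0.311 pooled summits per kb of bHLH windows against 0.306 per kb over the windows of all protein-coding genes. The median best pooled rank was 7150 among the 39 genes with a peak and 7623 among all protein-coding genes with one. The bHLH windows, with a median of 6549 bp (5425 to 25159 bp), were slightly shorter than the median of 7027 bp over all genes.

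With this window, the bHLH share was above that of all genes at stricter limits too, with small counts. A pooled peak found in both replicates lay in 25 windows (61.0%), against 46.5% of all genes. A pooled peak of rank 5000 or better lay in 17 windows (41.5%), against 32% of all genes, and 14 genes (34.1%, against 23.1%) had at least 1 such peak that was also found in both replicates. With rank 10000 as the limit it was 24 genes (58.5%, against 53.0%). With rank 1000 as the limit, 4 genes remained (9.76%, against 7.71%), and 1 gene, hlh-27, had a thresholded peak (2.44%, against 1.07%). A pooled peak nearest to the gene's own start, rather than to another protein-coding start, was present for 31 genes (75.6%, against 63.3%). None of these shares was tested, and the share with a thresholded peak rests on that single gene. Close to the gene start the order was the other way for most counts. From 1000 bp upstream to 300 bp downstream of it, 11 genes (26.8%) had a pooled peak, against 32% of all genes, 2 (4.88%, against 5.91%) had one of rank 5000 or better and 0 (against 0.365%) had a thresholded one, while 5 (12.2%, against 9.56%) had one found in both replicates. Just inside the limit of 5000 were hlh-13 at 4865 and a second hlh-11 peak at 4902, and just outside was ahr-1 at 5456.

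**Figure D1:**
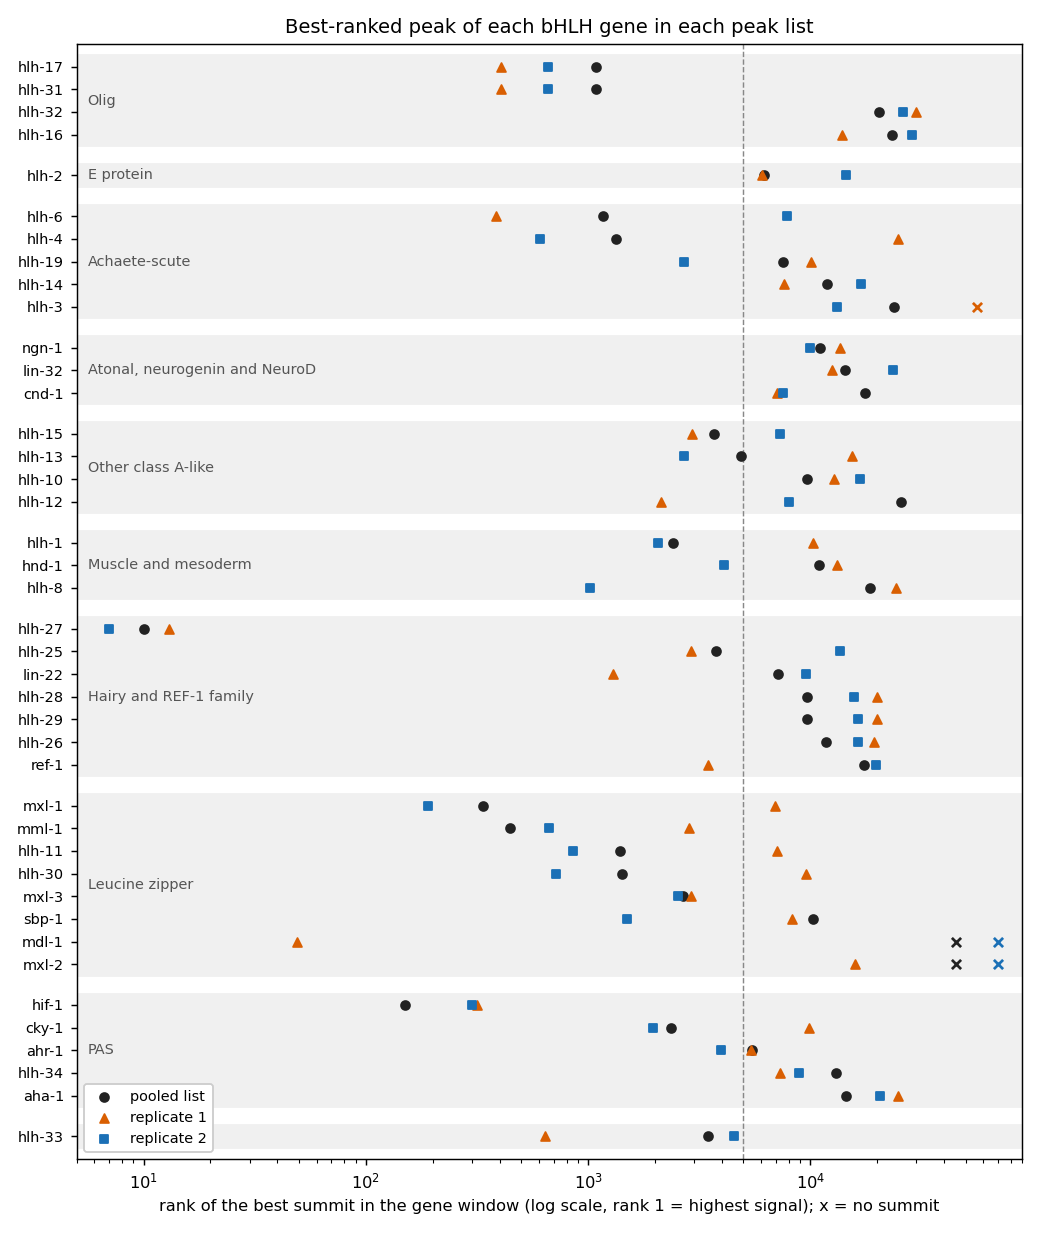
Rank of the best summit in each gene's window (horizontal, log scale, rank 1 is the highest signal) in the pooled list, replicate 1 and replicate 2, for all 41 bHLH genes grouped by kind. The dashed line marks rank 5000 and crosses mark a list with no summit; hlh-27 leads in all 3 lists, at ranks 10, 13 and 7, and mdl-1 has rank 49 in replicate 1 and crosses in the other lists.

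The Olig group was read apart, because the strain carries extra hlh-17 sequence. hlh-17 and hlh-31 lie side by side on chromosome IV (16254764 to 16256274 and 16257630 to 16259534), so that 4 of the 5 pooled peaks in the hlh-17 window were also in the hlh-31 window. The best of them, of pooled rank 1089 (signal 110), lay 1774 bp upstream of the hlh-17 start. Its nearest start of any kind was that of the piRNA gene 21ur-1864, 199 bp away. This peak ranked 405 in replicate 1 (signal 50.4) and 9392 in replicate 2 (signal 56.5). The next, of rank 1924 (signal 102), lay 52 bp upstream of that start, had no replicate 1 summit within 100 bp, and ranked 662 in replicate 2 (signal 83.9). So the replicates placed their best hlh-17 peak at different sites. Both sequences are printed above, the first with 1 E-box and the second with none.

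The other peaks of the hlh-17 window had pooled ranks of 9850, 27932 and 29164. hlh-31 shared its leading peaks, each of which had the hlh-17 start as its nearest protein-coding start. hlh-32 lies apart on the same chromosome (16132464 to 16134290) and had 1 pooled peak, of rank 20456, 8 bp upstream of its start, which was not found in replicate 1 and ranked 26088 in replicate 2. hlh-16, the Olig-like gene that acts in early nervous system asymmetry, had 1 pooled peak, of rank 23392. The high ranks of this group were therefore those of the adjacent hlh-17 and hlh-31.

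Summits around hlh-17 were counted because the strain also carries hlh-17 sequence in its transgene. Across 50 kb on either side of the hlh-17 start, 5-kb bins held 0 to 4 summits in each list. Their mean was 1.85 in the pooled list, 1.40 in replicate 1 and 1.70 in replicate 2, beside chromosome IV means of 1.43, 1.44 and 1.42 and a 95th percentile of 4 in every list. In the pooled list the bins from -10 to -5 kb and from -5 to 0 kb held 4 summits each, equal to that percentile. The bin from 0 to 5 kb held 1. Such counts do not measure how high the peaks are. Whether reads from the transgene raised the peaks at hlh-17 was not tested.

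**Figure D2:**
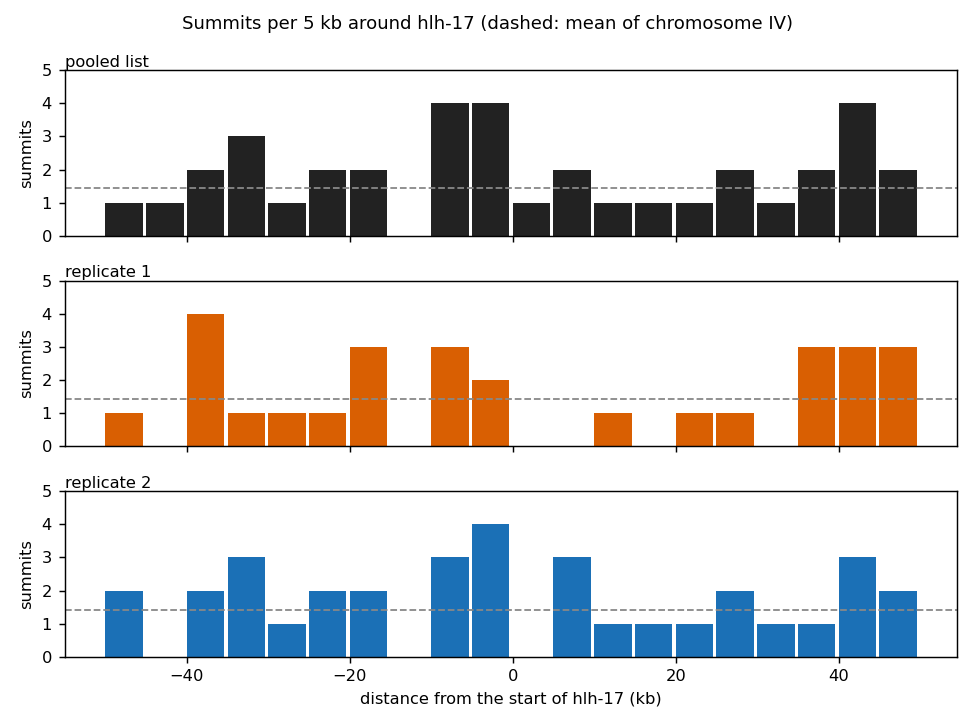
Number of summits per 5-kb bin (vertical) by distance from the hlh-17 start (horizontal, kb) in the pooled list and each replicate, with the mean of chromosome IV dashed. No bin holds over 4 summits, the 95th percentile of the chromosome's bins.

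The close relatives also bear on where a read can be placed. The coding sequence of hlh-17 matched that of hlh-31 at 87.9% of aligned bases and that of hlh-32 at 84.4%, and hlh-31 matched hlh-32 at 79.5%. Of all 31-base words in the hlh-17 window 93.3% occurred once in the genome, against 91.9% for hlh-31 and 69.1% for hlh-32. The peaks at ranks 1089 and 1924 held only words that occur once, but those at 9850 and 27932 held 49.3% and the one at 29164, in the coding sequence of hlh-17, held 1.41%. Without hlh-17, hlh-31 and hlh-32, 36 of 38 genes had a pooled peak (94.7%, against 87.8% of all genes). A pooled peak found in both replicates was present for 23 of the 38 (60.5%, against 46.5%). One of rank 5000 or better was present for 15 (39.5%, against 32%), and one of rank 1000 or better for 4 (against 7.71%).

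HLH-2, the worm's E protein and common partner of tissue-specific bHLH factors, had a best pooled peak of rank 6169. This peak lay 995 bp into the gene in a coding exon and ranked 6062 in replicate 1. No replicate 2 summit lay within 100 bp of it, the best of that list being 824 bp into the gene at rank 14392. The Hairy and REF-1 family acts as repressors, several of its members downstream of Notch. All 7 had a pooled peak, 5 had one found in both replicates and 2 had one of rank 5000 or better, where the shares of all genes were 87.8%, 46.5% and 32%. Counts within such small groups are descriptions only.

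The strongest bHLH peak was in the hlh-27 window, but closer to other genes. It had pooled rank 10 (signal 293), rank 13 in replicate 1 (signal 109) and rank 7 in replicate 2 (signal 194), so it was near the top of every list. Its summit, on chromosome II at 5543787, lay 3574 bp upstream of hlh-27. The nearest starts were those of the ncRNA gene C17C3.23, 89 bp away, and the snRNA gene sls-2.2, 189 bp away, and the nearest protein-coding start was that of ins-13, 1077 bp away. No CANNTG lay within 50 bp of the pooled summit or the replicate 1 summit, but 1, CATTTG, lay within 50 bp of the replicate 2 summit at 5543796. Assigned to the nearest protein-coding start, this peak belongs to no bHLH gene, and then 0 of 41 had a thresholded peak, against 0.451% of all genes.

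The other members of the family ranked lower. hlh-25 had a peak of rank 3776 inside C17C3.9, 3474 bp upstream of its start, which was found in replicate 1 (2905). Replicate 2 had no summit within 100 bp of it, but had one 3580 bp upstream of hlh-25 at rank 13660. lin-22, the hairy homologue that patterns the lateral epidermis, had 1 pooled peak of rank 7150, 2366 bp from its start, which ranked 1291 in replicate 1. It was not found in replicate 2 within 100 bp, where the lin-22 summit lay 2221 bp from the start at rank 9514. hlh-26 had a peak of rank 11795 inside C17C3.11, found in both replicates, and ref-1, which gives the family its name, one of rank 17486. hlh-28 and hlh-29 are neighbours on the X chromosome and shared a peak of rank 9662 (19978 in replicate 1 and 16428 in replicate 2). These last genes are near-copies: their coding sequences were 99.6% identical, and 33.1% and 33.8% of the words in their windows occurred once, so most of either window cannot be told from sequence elsewhere. The shared peak itself held only words that occur once. The coding sequences of hlh-25 and hlh-27 were 99.0% identical, and the hlh-27 peak likewise held only words that occur once.

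Proneural genes had mostly moderate ranks. All 5 Achaete-scute genes had a pooled peak (87.8% of all genes) and 3 had one found in both replicates (46.5% of all genes). hlh-6, needed for pharyngeal gland cells, had a peak of rank 1167 (signal 109) 2675 bp upstream of its start, but this summit lay inside dnj-20 and 378 bp from the start of hal-3. It ranked 387 in replicate 1 (signal 50.7) and 7864 in replicate 2 (signal 58.5). hlh-4, a regulator of the ADL sensory neuron, had its single pooled peak, of rank 1331 (signal 107), in a coding exon 1344 bp from its start, at rank 609 in replicate 2 (signal 84.7). Replicate 1 had no summit within 100 bp of it, its nearest being 163 bp from the replicate 2 summit at rank 24727. The replicates thus ranked both genes very differently, in opposite directions.

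hlh-19 had a best pooled rank of 7571, hlh-14 of 11827 and hlh-3 of 23704, and hlh-3 had no replicate 1 summit in its window. The hlh-19 summit of rank 7571 lay inside nas-38, 69 bp from the nas-38 start. lin-32, the atonal homologue of touch and ray neurons, had a peak of rank 14343 inside T14F9.2, found in both replicates. cnd-1, the NeuroD homologue of motor neurons, had 1 of its 4 peaks found in both replicates and a best rank of 17643. The neurogenin ngn-1 had 1 peak of rank 11062, not found in replicate 1. No gene of the atonal, neurogenin and NeuroD group came within rank 5000.

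Among other class A-like genes, hlh-15 had 3 pooled peaks, all found in both replicates, of ranks 3671, 4384 and 7938, upstream of it. All 3 summits fell inside glr-7, a glutamate receptor gene, and the one of rank 3671 lay 73 bp from the start of the ncRNA gene C43H6.10. hlh-13, the Ptf1a homologue, had a peak of rank 4865 inside F48D6.4, not found in replicate 1 and at 2702 in replicate 2, and a second of rank 11190 found in both. hlh-10 had a best rank of 9612 and 1 peak found in both replicates. hlh-12, which acts in the migrating cells of the gonad, had its only pooled peak at 25560, inside spp-8. The genes that specify muscle and mesoderm were led by hlh-1, the MyoD homologue, with a peak of rank 2418 (signal 99.4) in a coding exon 636 bp from its start, at 16132 in replicate 1 and 2059 in replicate 2. hnd-1 (Hand) followed at 10887 and hlh-8 (Twist) at 18577, both found in replicate 2 and not in replicate 1. hlh-8 had rank 1015 in replicate 2, 2409 bp into the gene.

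Leucine zipper members had a median best pooled rank of 1404.5 over the 6 that had a peak, the best median of the groups in that list. It rested on replicate 2, where the median was 782.5. In replicate 1 it was 7002.5, and the Hairy and REF-1 family had 3451. The median window of the leucine zipper genes was 8075.5 bp, against 7027 bp over all genes, with hlh-30 at 25159 bp, sbp-1 at 19200 bp and hlh-11 at 11819 bp. These proteins form the Myc-like network, in which MXL-1 (Max) pairs with MDL-1 (Mad) and MXL-2 (Mlx) with MML-1 (Mondo), together with the lysosome and autophagy regulator HLH-30 (TFEB), the lipid regulator SBP-1 (SREBP), MXL-3 and HLH-11. Of 8 genes, 5 had a peak of rank 5000 or better (32% of all genes) and 5 had one found in both replicates (46.5% of all genes), while mdl-1 and mxl-2 had no pooled peak. In the pooled list and in replicate 2, mxl-1 and mml-1 were thus ranked high and their partners had no summit. In replicate 1 the order of the first pair was the reverse, with mdl-1 at rank 49 and mxl-1 at 6912.

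mxl-1 had a peak of rank 335 (signal 127) in an untranslated exon 1059 bp from its start, at 6912 in replicate 1 (signal 33.0) and 190 in replicate 2 (signal 96.2). Its second, of rank 850, lay 4164 bp upstream inside ima-1 and ranked 16455 and 736. mml-1 had a peak of rank 443 (signal 123) in a coding exon, 1897 bp from its start, at 2842 in replicate 1 (signal 38.9) and 664 in replicate 2 (signal 83.9). A second mml-1 peak of rank 1090, 2857 bp from the start and also in a coding exon, ranked 16725 and 837. All 4 peaks stood higher in replicate 2.

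hlh-11 (AP-4) had a peak of rank 1389 in an untranslated exon near the end of the gene, 6554 bp from its start, at 16027 in replicate 1 and 851 in replicate 2. hlh-30, with the longest window, had 7 pooled peaks, the best of rank 1420 in a coding exon 16830 bp from its start, at 26661 in replicate 1 and 714 in replicate 2. mxl-3, a repressor of lysosomal lipase genes, had a peak of rank 2684 in a coding exon that ranked 2891 in replicate 1 and 8559 in replicate 2. sbp-1 had 6 pooled peaks, the best of rank 10291 and none found in both replicates, in a window where 61.1% of words occurred once.

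mdl-1 had a high peak in replicate 1 alone. Replicate 1 placed a peak of rank 49 (signal 72.5) in an intron 674 bp from the mdl-1 start, whose sequence above holds the E-boxes CACGTG and CACCTG. The nearest replicate 2 summit was 10782 bp away and the nearest pooled summit 1038 bp away, outside the window. Of the first 100 peaks of replicate 1, 7 had neither a replicate 2 nor a pooled summit within 100 bp, and of the first 100 of replicate 2 it was 2. Every 31-base word in the mdl-1 window occurred once in the genome. mxl-2 had only a replicate 1 peak of rank 15891, 29 bp from its start.

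PAS-domain members were led by hif-1, the hypoxia-inducible factor that EGL-9 and VHL-1 keep low when oxygen is plentiful. Its best peak had pooled rank 150 (signal 140), in a coding exon 4147 bp from the start and nearest to no other gene, and ranked 1135 in replicate 1 (signal 44.3) and 301 in replicate 2 (signal 91.3). A second hif-1 peak, of rank 1672 (signal 104) 1480 bp from the start, was not found in replicate 1 and ranked 703 in replicate 2 (signal 83.4). Replicate 1 placed its own best hif-1 peak, of rank 315 (signal 51.8), elsewhere, 4162 bp from the nearest summit of either other list. The similar best ranks of hif-1 in the replicates, 315 and 301, thus came from different sites, and the site shared by all lists was the one at rank 150.

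cky-1, homologous to the activity-dependent neuronal factor NPAS4, had a peak of rank 2352 (signal 99.7) 169 bp upstream of its start, at 11601 in replicate 1 and 1961 in replicate 2. Its sequence above holds no E-box. ahr-1, the aryl hydrocarbon receptor, had a best peak of rank 5456, 593 bp upstream, at 15581 and 11054. aha-1, which encodes the ARNT partner of HIF-1 and AHR-1, reached 14476, and hlh-34 13088, and neither had a peak found in both replicates. hlh-33, which was put in no group, had peaks of ranks 3446 and 4308, found in both replicates, the second inside pqn-82. They ranked 639 and 785 in replicate 1 against 14892 and 18625 in replicate 2.

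**Figure D3:**
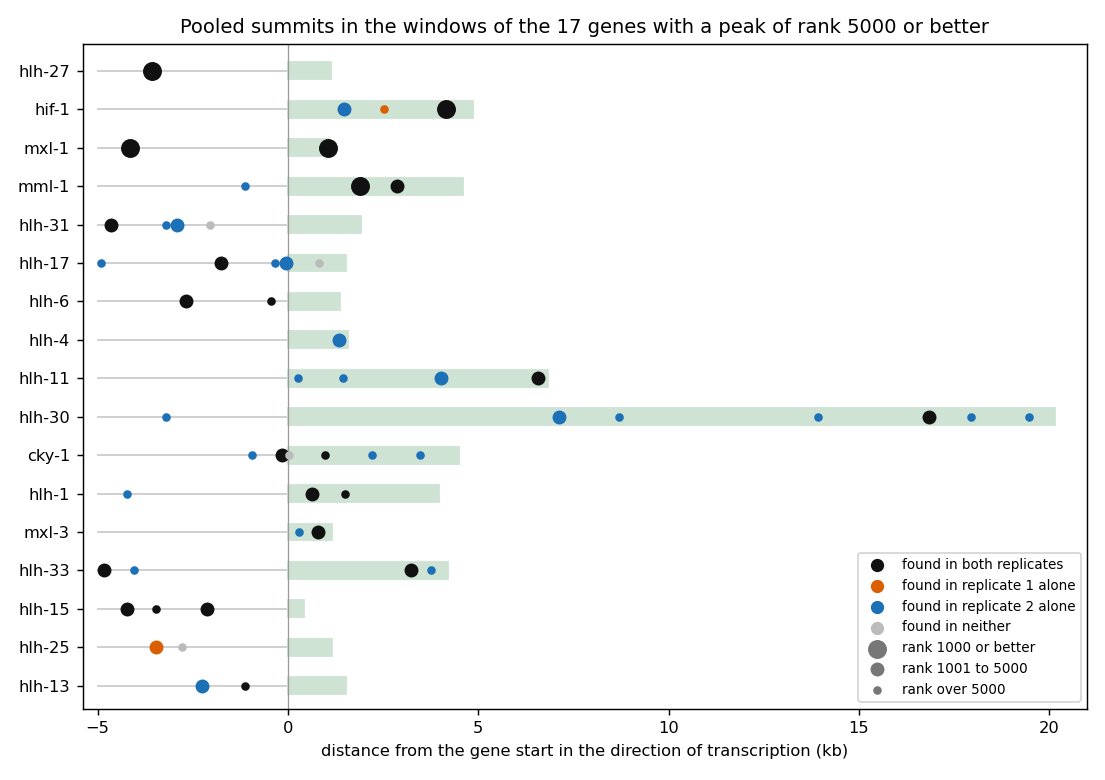
Position of each pooled summit (horizontal, kb from the gene start in the direction of transcription) in the windows of the 17 bHLH genes with a peak of rank 5000 or better; green bars are gene bodies, dot size gives the rank class and colour the replicates in which the peak was found. The hif-1 and mml-1 peaks lie inside the gene, at 4147 bp and 1897 bp, and the hlh-27 peak lies 3574 bp upstream.

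Summit density in the pooled list was above that of all genes in exons and below it in introns and upstream. Counted per gene, 28 pooled summits fell in coding exons of bHLH genes, or 0.732 per kb (exact Poisson 95% interval 0.487 to 1.06), against 0.484 per kb in all protein-coding genes. Replicate 1 gave 0.628 per kb (0.402 to 0.934) against 0.466 and replicate 2 gave 0.654 (0.423 to 0.965) against 0.472, intervals that hold the general value. Untranslated exons held 6 pooled summits, 0.411 per kb (0.151 to 0.894) against 0.252, but in replicate 1 the density was 0.274 against 0.265. The upstream parts had 0.268 pooled summits per kb (0.202 to 0.349) against 0.285, and introns 0.207 (0.116 to 0.341) against 0.250. These intervals too hold the general value. Upstream, replicate 1 gave 0.283 against 0.286, while replicate 2 was above the general value, at 0.312 against 0.284. Introns gave 0.248 against 0.253 in replicate 1 and 0.207 against 0.254 in replicate 2. The intervals treat summits as independent, and 3 lists from the same libraries are not separate evidence. Of the 99 distinct pooled peaks, 24 had rank 5000 or better (24.2%, against 16.7% of all pooled peaks). Of these 24, 10 were in coding exons, 11 upstream, 2 in untranslated exons and 1 in an intron. The same split was not made for all pooled peaks of that rank, so it is a description only.

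**Figure D4:**
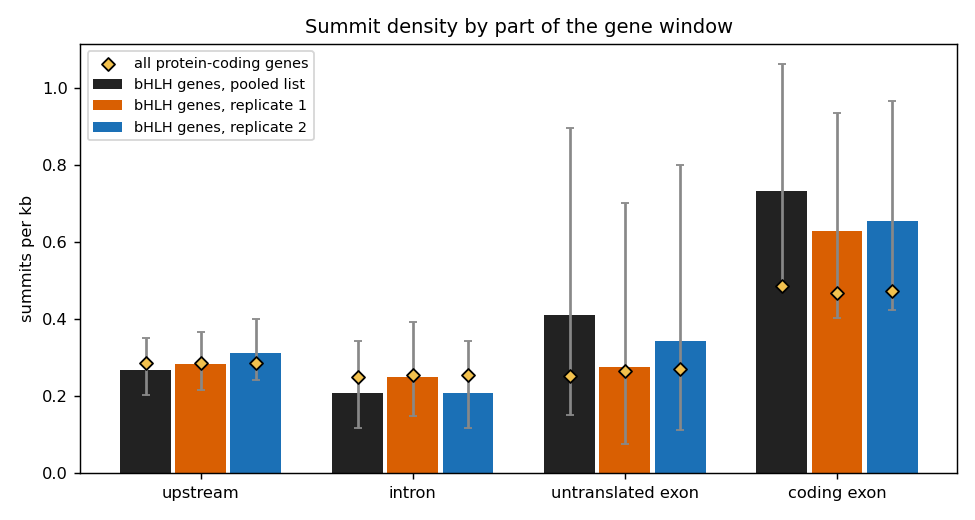
Summits per kb (vertical) in the upstream 5 kb, introns, untranslated exons and coding exons of the 41 bHLH genes in each list, with exact Poisson 95% intervals as bars, and diamonds for all protein-coding genes. Coding exons have the highest density, 0.732 per kb in the pooled list against 0.484 over all genes; the replicate intervals contain the diamonds.

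Across the 99 distinct pooled peaks of the bHLH windows, 46.5% were found in replicate 1 (exact Clopper-Pearson 95% interval 36.4 to 56.8) against 47.2% of all pooled peaks. Replicate 2 held 79.8% (70.5 to 87.2) against 69.5%. Both replicates held 32 peaks, 32.3% (23.3 to 42.5) against 27%, and neither held 6.06% (2.26 to 12.7) against 10.3%. The intervals cover counting error only and treat peaks as independent, and the pooled list shares its reads with both replicates.

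A peak found in both replicates was seldom strong in both. Of these 32 peaks, 3 had rank 5000 or better in each replicate, 7 in replicate 1 alone, 7 in replicate 2 alone and 15 in neither. The 3 were those of hlh-27, hif-1 (rank 150) and mml-1 (rank 443), and 3 of 41 genes compares with 5.88% of all genes. Over all pooled peaks found in both replicates, 9.14% were within rank 5000 in each, beside 9.38% here. By replicate, 7 bHLH genes (17.1%) had a replicate 1 peak of rank 1000 or better, against 7.65% of all genes, and 9 (22.0%) had a replicate 2 peak, against 7.96%. Without hlh-17, hlh-31 and hlh-32 these counts were 5 and 7 of 38. Among the genes of both sets, hlh-27 alone was there with a summit that the other replicate placed within rank 1000 too.

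**Figure D5:**
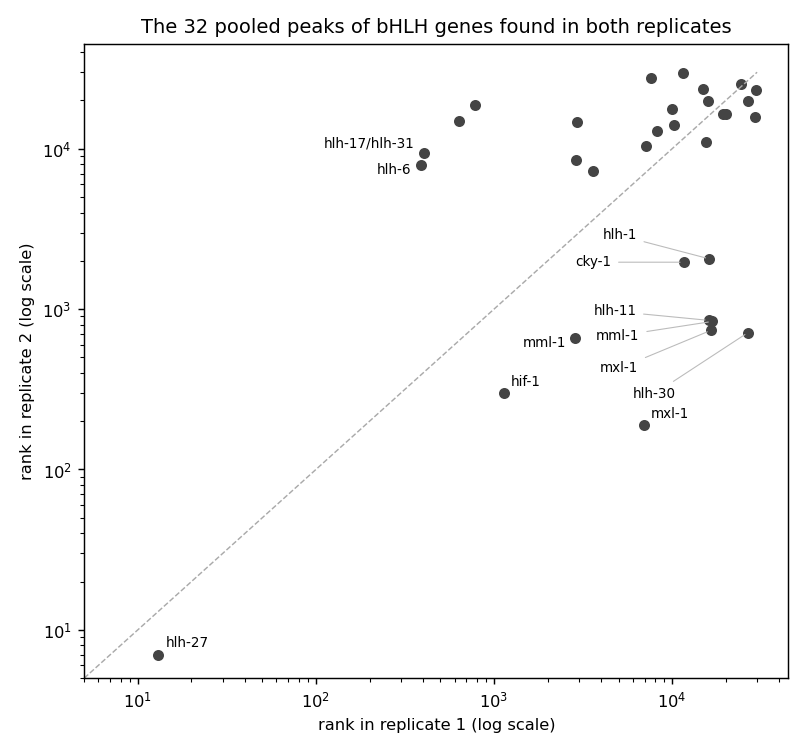
Rank in replicate 1 (horizontal) against rank in replicate 2 (vertical), both on log scales, for the 32 pooled peaks of bHLH windows found in both replicates; the dashed line marks equal ranks and names mark the peaks of best pooled rank. hlh-27 sits alone at ranks 13 and 7, whereas hlh-6 and hlh-17/hlh-31 lie far above the line and mxl-1, hlh-11 and hlh-30 far below it.

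E-boxes were about as frequent at these peaks as at pooled peaks as a whole. A CANNTG lay within 50 bp of 45 of 99 summits, 45.5% (35.4 to 55.8), against 38.5% of all pooled peaks, a value inside the interval. At rank 5000 or better it was 10 of 24, 41.7%, against 38.8% of all pooled peaks of that rank. By form, and counting a form with its reverse complement, CAGATG was at 11.1% of summits against 5.49% and CAAATG at 12.1% against 9.93%. CACCTG was at 6.06% against 3.53% and CATATG at 5.05% against 2.20%. The forms below their general share were CAATTG, at 2.02% against 5.21%, and CACGTG, preferred by Max-like dimers, at 2.02% against 2.53%. The largest of these counts was 12 of 99. The median GC content within 50 bp of the summits was 39.6%, against 40.6% over all pooled peaks.

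Genes that work with bHLH factors were counted the same way: Notch ligands and receptors, the regulators of HIF-1, cofactors such as mdt-15 and unc-37, and genes of the TOR pathway and nuclear export that control HLH-30. Of 17 such genes, 16 had a pooled peak (94.1%, against 87.8% of all genes), 11 had one found in both replicates (64.7%, against 46.5%), and 7 had one of rank 5000 or better (41.2%, against 32%). A thresholded peak was present for 2 (11.8%, against 1.07%), a share that is no independent evidence, since hsp-90 was listed with its peak already known. They were hsp-90, which encodes the chaperone of PAS proteins, and mdt-15, which encodes the mediator subunit that works with SBP-1. The hsp-90 peak had rank 19 (12 and 49 in the replicates) and lay 259 bp upstream of C47E8.4, and the mdt-15 peak had rank 96 (8130 and 64) in an untranslated exon. The Notch ligand gene lag-2 had 3 peaks between ranks 1638 and 1894, the receptors glp-1 and lin-12 had best ranks of 3298 and 3704, and the nuclear export gene xpo-1 had 1261. In replicate 1 the lag-2 peak of rank 1638 was not found, and the other lag-2 peaks ranked 28241 and 11230. The glp-1 and lin-12 peaks were not found there either, and the xpo-1 peak ranked 17669 against 526 in replicate 2. The nearest protein-coding start was that of ZK507.1 for the glp-1 peak and uvs-1 for the xpo-1 peak. vhl-1, whose product targets HIF-1 for degradation, had no pooled peak.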

How the data were processed

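The authors deposited peak lists on ce11, with a signal value per peak that is never negative and whose scale is not stated. Per the deposited notes, each replicate's relaxed list was called against the same control, a pooled list was called from both replicates, and a thresholded list was derived by the irreproducible discovery rate. Which aligner and peak caller they used is not given in the sources used here. Each relaxed list holds 30000 peaks and the thresholded list 115, and nearly all peaks of the pooled list are 384 bp wide, so width carries no information.

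Peaks were ranked by signal within each list and placed by summit in gene windows of Ensembl release 115 (WBcel235, the same assembly as ce11), with Python 3.11.15, numpy 2.4.6, pandas 2.3.3, scipy 1.17.1, Biopython 1.88 and matplotlib 3.10.9. Counts over all bHLH genes are given beside the same share over all protein-coding genes or pooled peaks, and the placement was tested on simulated data. No test between groups was possible with 1 group, and no p-value is given. Intervals are exact 95% intervals. Genes named are hlh-17, hlh-31 and hlh-32, every member with a thresholded peak, a pooled peak of rank 5000 or better or one found in both replicates, those without a pooled peak, and the best of each group; other members and partner genes named were added after their values were seen. The members, the role groups and the list of partner genes were chosen with earlier results of these data known, and hsp-90 was put on that list for such a result. Alternatives covered the list, the window, the placement of peaks, the matching distance, the rank limit and the E-box distance. No sequence of chromosome I is printed, although its peaks enter the E-box and word counts, and no protein sequences were used.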

Additional observations from a re-analysis of the deposited data

How the results depend on the processing

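Of 77 alternatives computed, 34 kept their values within the limits set for a move and 43 moved them; every value below is for the bHLH genes. Values for all protein-coding genes or all pooled peaks under the same setting follow each after "against", and the E-box share of all pooled peaks within 50 bp of the summit was 38.5%. With only 1000 bp upstream to 300 bp downstream of the start, 11 genes (26.8% against 32%) had a pooled peak, 2 (4.88% against 5.91%) one of rank 5000 or better, 5 (12.2% against 9.56%) one found in both replicates and 0 (against 0.365%) a thresholded one, with 0.303 summits per kb against 0.283 and an E-box at 25% of summits. The shares with any pooled peak, one of rank 5000 or better, a thresholded one and an E-box were thus below those of all genes or peaks, the reverse of the 5000-bp window. With 2000 bp upstream, 11 genes (26.8% against 22.3%) had a peak of rank 5000 or better and 0 (against 0.681%) a thresholded one, at 0.331 summits per kb against 0.314 and 50.8% with an E-box. With 1000 bp upstream these were 11 (26.8% against 18.7%), 0 (against 0.616%), 0.362 against 0.321 and 50%, and 14 genes (34.1% against 27.8%) had a peak found in both replicates. With only peaks nearest to the gene's own start, 11 (26.8% against 17.2%) had one of rank 5000 or better, 15 (36.6% against 26.3%) one found in both replicates and 0 (against 0.451%) a thresholded one, at 0.192 per kb against 0.268 and 45.9% with an E-box. The median best rank was 8543 under the start window (against 14400), 2000 bp upstream (against 9660) and own-start settings (against 10500), 6660 (against 7430) when any overlap of the peak counted (0.330 per kb against 0.308, 47.6% with an E-box) and 7360 (against 7620) without hlh-17, hlh-31 and hlh-32 (46.2%). A rank limit of 1000 left 4 genes (9.76% against 7.71%). The E-box share was 23.2% within 25 bp (against 21.1%) and 62.6% within 100 bp (against 61.0%), and the share of peaks found in both replicates was 18.2% with summits within 50 bp (against 18.2%). The best hlh-17 rank was 1924 with 1000 bp upstream or the start window, and had no value without hlh-17, hlh-31 and hlh-32. The cause of these moves was not tested.

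With 1 replicate left out, values are given first without replicate 1 and then without replicate 2. A peak was present for 39 genes (95.1% against 87.9%) and 40 (97.6% against 88.5%). One of rank 5000 or better was present for 19 (46.3% against 32.3%) and 14 (34.1% against 32%). A pooled peak found in the remaining replicate was present for 37 (90.2% against 79.1%) and 31 (75.6% against 65.9%). The share of all genes, 46.5% when both replicates had to match, thus rose as well. In the same order, the median best rank was 7291 (against 7480) and 7459 (against 7730). Summits per kb were 0.327 and 0.317, each against 0.305. The E-box share was 47.1% (against 38.4%) and 46.5% (against 37.7%), and the best hlh-17 rank was 662 and 405. The share of pooled peaks found in the remaining replicate was 79.8% (against 69.5%) and 46.5% (against 47.2%). No paired analysis was possible because the 2 replicates form 1 group. With relaxed lists that cover most genes and no read numbers, single peaks of low rank cannot be told apart from background.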
